A study of Homo sapiens with 6 samples.

Results

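The tricarboxylic acid (TCA) cycle enzymes described here were CS, IDH1, IDH2, IDH3A, OGDH, SUCLA2, FH and MDH2. They were taken by gene symbol, and all 8 were found among the 17631 genes with values and passed the filter on low values, a transcripts-per-million (TPM) value of at least 1 in 3 or more libraries. The libraries came from MDA-MB-231, a long-established triple-negative line of human breast cancer, with 3 libraries from cells given vehicle and 3 from cells given PDBAG1 at 30 µM for 24 h. PDBAG1 is a peptide from the enzyme GPD1 joined to a cell-penetrating peptide, and the study asked how it alters mitochondrial energy metabolism. Both groups were the same line in the same medium, and no source says whether replicates were separate cultures, so p values may measure technical spread only.

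The TCA cycle runs in the mitochondrial matrix, where acetyl-CoA is joined to oxaloacetate, oxidised in steps that hand electrons to NADH and FADH2, and returned to oxaloacetate. Cancer cells also use it as a supply line: citrate leaves for lipid synthesis, and carbon re-enters from pyruvate through pyruvate carboxylase or from glutamine by way of glutamate and 2-oxoglutarate. Several of its intermediates, among them fumarate, succinate and 2-oxoglutarate, act on the dioxygenases that sense oxygen.

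The 8 genes moved in both directions with PDBAG1. IDH1, the cytosolic NADP-dependent isocitrate dehydrogenase, rose, whereas FH, the fumarase, and IDH3A, the catalytic subunit of the mitochondrial NAD-dependent isocitrate dehydrogenase, fell. The other 5 did not pass the test. All differences were small, at most 1.23-fold. The 3 calls among 8 genes stood against 37.6% of the 12582 genes tested that passed the same limit (limma, Benjamini-Hochberg adjusted p under 0.05) and was close to that background share. The 1 rise stood against 21.7% of all genes called higher and the 2 falls against 15.9% called lower. Of all calls 57.8% were higher, and 47.2% and 46.7% when the TPM were rescaled by median of ratios or quantile normalised. No member reached the study's 1.5-fold limit in limma, against 3.34% of all genes that did, while 3 had an unadjusted p under 0.05. The median difference of the 8 genes in log2(TPM + 1) was 0.03, beside 0.03 over all genes tested, and -0.01 for both under median-of-ratios scaling. Under quantile normalization the 2 medians parted, with 0.04 for the 8 genes and -0.02 over all genes tested. The summed level of the 8 genes was 762 ± 15.8 TPM in the vehicle libraries and 767 ± 9.23 TPM in the PDBAG1 libraries (SD, n = 3 each).

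The libraries of a group were closer to each other than to those of the other group. The number of genes at 1 TPM or more was 12392 to 12611, the SD of log2 differences between libraries was 0.14 to 0.18 within a group and 0.28 to 0.30 between groups, and TPM keeps no depth, so counting error could not be given. The 7 genes fixed as high markers of this mesenchymal line were all at 41.1 TPM or more in every library. Their sum was 6312 to 6462 TPM with vehicle and 8170 to 8230 TPM with PDBAG1. VIM made up most of it, with means of 4270 and 5877 TPM. These markers did not move together. VIM, CD44, MSN and FOSL1 were higher with PDBAG1, AXL (-0.26) and CAV1 (-0.30) lower (limma adjusted p under 0.05), and ZEB1 did not pass. Of the low markers PGR and CDH1 reached at most 0.06 and 0.84 TPM, and ESR1, EPCAM and GATA3 at most 3.38, 5.78 and 3.88 TPM, although ERBB2 was at 23.6 to 25.4 TPM. Among markers of other breast cell types, the endothelial sum was 4.11 to 4.40 TPM with vehicle and 8.42 to 9.60 TPM with PDBAG1, almost wholly from PECAM1, with VWF and CDH5 at most at 0.09 and 0.46 TPM; its part in the results was not tested. The adipocyte, leukocyte and fibroblast sums were at most 14.5, 9.11 and 4.96 TPM. The labels give breast cancer tissue beside the line, and the defining adipocyte, leukocyte and fibroblast genes ADIPOQ, PTPRC and LUM reached at most 0.690, 1.41 and 0.0400 TPM.

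The sequences upstream of the 3 genes that passed the test are shown because these genes moved in opposite directions. The windows are those of RefSeq on GRCh38.p14, and the 250 bases before the annotated start are printed 5′ to 3′ on the gene's strand. Capitals mark ACGTG or GCGTG, the core of the hypoxia response element bound by HIF factors, on either strand (CACGT or CACGC when read on the printed strand). IDH1 has a pair of RefSeq windows, at chr2:208254459-208254708 and chr2:208255072-208255321, both on the minus strand. IDH3A lies at chr15:78149112-78149361 on the plus strand and FH at chr1:241519756-241520005 on the minus strand.
IDH1, first window: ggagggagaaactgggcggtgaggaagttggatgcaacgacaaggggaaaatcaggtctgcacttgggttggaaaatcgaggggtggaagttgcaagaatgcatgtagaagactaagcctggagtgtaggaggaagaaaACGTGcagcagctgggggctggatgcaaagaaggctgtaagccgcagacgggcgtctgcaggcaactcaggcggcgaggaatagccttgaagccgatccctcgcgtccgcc
IDH1, second window: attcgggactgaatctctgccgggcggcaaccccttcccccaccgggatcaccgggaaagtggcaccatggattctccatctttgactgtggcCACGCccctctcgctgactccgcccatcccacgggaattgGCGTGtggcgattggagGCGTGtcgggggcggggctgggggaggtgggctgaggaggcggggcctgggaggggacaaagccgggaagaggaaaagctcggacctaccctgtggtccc
IDH3A: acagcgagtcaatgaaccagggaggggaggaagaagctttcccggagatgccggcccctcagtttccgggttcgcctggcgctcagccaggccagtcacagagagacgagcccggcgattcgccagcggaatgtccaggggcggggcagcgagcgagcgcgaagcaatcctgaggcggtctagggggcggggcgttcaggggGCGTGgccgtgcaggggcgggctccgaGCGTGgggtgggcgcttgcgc
FH: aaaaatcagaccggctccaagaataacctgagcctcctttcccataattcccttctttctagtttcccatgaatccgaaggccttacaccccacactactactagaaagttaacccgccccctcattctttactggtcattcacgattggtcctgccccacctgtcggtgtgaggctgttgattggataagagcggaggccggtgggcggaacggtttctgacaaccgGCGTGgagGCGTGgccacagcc

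The core was present upstream of the gene that rose and of both genes that fell. In the full windows of 300 bases, which run 50 bases past the start, IDH1 held 2 matches in the first and 3 in the second, IDH3A held 2 and FH held 2. IDH2 held 1, and CS, SUCLA2 and MDH2 held 0. The IDH2 window (chr15:90100572-90100871, minus strand) lay inside the gene's GENCODE span, as did the windows of IDH1, IDH3A and SUCLA2. Annotated starts further upstream in these genes were not scanned. OGDH had no entry. Of 35116 RefSeq windows of this length, 48.45% held at least 1 match, 21.4% an ACGTG and 36.5% a GCGTG. The 2 FH matches lay from 22 to 18 and from 14 to 10 bases before the start. A match describes letters only and says nothing of binding. The windows of IDH2 and FH had 48.3% and 54.0% G and C, those of IDH1 59.7% and 64.7%, and those of the other 4 members with a window 66.7% to 70.0%, beside a median of 58.7% over all windows.

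**Figure D1:**
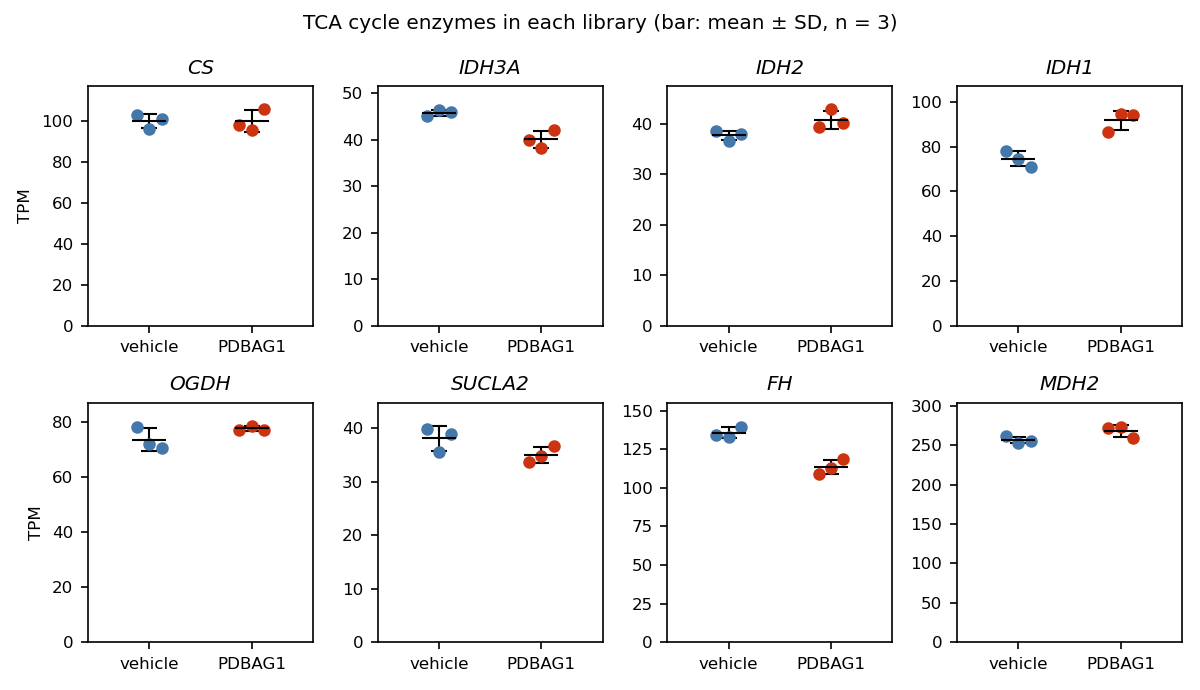
Level of each of the 8 TCA cycle enzymes in every library, in TPM (vertical axis from 0) for vehicle and PDBAG1, with points for libraries and bars for mean ± SD (n = 3). The PDBAG1 points of IDH1 lie above, and those of IDH3A and FH below, all vehicle points, while CS, OGDH, SUCLA2 and MDH2 overlap.

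The isocitrate dehydrogenases divided most. IDH1 (chromosome 2, 208236229 to 208266074, GRCh38, GENCODE v44), which makes NADPH and 2-oxoglutarate in the cytosol, was at 78.1, 74.7 and 71.1 TPM in the vehicle libraries and 86.7, 94.6 and 93.9 TPM in the PDBAG1 libraries. The groups did not overlap. The difference was 0.29 in log2(TPM + 1), with a standard error of 0.05 and a 95% confidence interval of 0.18 to 0.40 (limma adjusted p = 0.000580), or 22.9% in mean TPM. IDH1 passed the test under every alternative tried, with differences between 0.25 and 0.38. GENCODE places an antisense RNA, IDH1-AS1, over part of its exons, and whether reads were counted by strand is not given in the sources used here.

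IDH2 (chromosome 15, 90083045 to 90102477), the mitochondrial NADP-dependent counterpart, was at 38.5, 36.6 and 37.8 TPM with vehicle and 39.4, 42.8 and 40.1 TPM with PDBAG1. Its groups also did not overlap, yet the difference of 0.11 had an interval of -0.01 to 0.23 and did not pass (limma adjusted p = 0.126). With IDH2 there were 4 of the 8 genes without overlap, against 47.4% of all genes tested.

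IDH3A (chromosome 15, 78131498 to 78171945) forms the catalytic centre of the enzyme that makes NADH within the cycle. It was at 45.1, 46.3 and 46.1 TPM with vehicle and 40.0, 38.3 and 42.1 TPM with PDBAG1. It fell by 0.19 in log2(TPM + 1), with a standard error of 0.05 (limma adjusted p = 0.0127). All PDBAG1 libraries were lower than all vehicle libraries. Without PDBAG1 replicate 2, the lowest library, the difference was -0.16 and the adjusted p 0.0738. Exons of ACSBG1 and CIB2 overlap IDH3A on the opposite strand.

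The partners of IDH3A in the same complex did not move together. IDH3B, a further subunit and more abundant, was at 163, 157 and 157 TPM with vehicle and 149, 145 and 145 TPM with PDBAG1, and fell by 0.12 in log2(TPM + 1) (limma adjusted p = 0.0298). IDH3G, the gamma subunit, which takes part in allosteric control, was at 67.0, 59.4 and 59.7 TPM with vehicle and 75.9, 75.7 and 73.4 TPM with PDBAG1, and rose by 0.27 (limma adjusted p = 0.00137). IDH3G passed in every alternative. IDH3B passed in only 1 of the 6 fits that left out a library, that without PDBAG1 replicate 1, with differences between -0.13 and -0.10. It also did not pass with a replicate block (limma adjusted p = 0.0834), without the variance trend (0.0932), under quantile normalization (0.0583) or with length and GC trends removed (0.135). Exons of SSR4 overlap IDH3G on the opposite strand. The summed level of the 3 subunit genes was 267 ± 7.05 TPM in the vehicle libraries and 261 ± 3.19 TPM in the PDBAG1 libraries (SD, n = 3 each).

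The same TPM values were set out as ratios within each library, which no scaling between libraries enters. The ratios restate these values and are not separate support. The IDH1 to IDH2 ratio was 2.03, 2.04 and 1.88 with vehicle and 2.201, 2.21 and 2.34 with PDBAG1. The IDH2 to IDH3A ratio was 0.854, 0.791 and 0.822 with vehicle and 0.986, 1.12 and 0.953 with PDBAG1. Neither overlapped between groups, and the log2 ratios differed by 0.18 and 0.31. In a two-sided exact permutation test each had p = 0.1, the smallest that 3 libraries against 3 can give, and 0.2 after Benjamini-Hochberg adjustment over the 6 ratios compared, so neither could pass a limit of 0.05. The ratios IDH1 to IDH3A and IDH3G to IDH3A, chosen after the values were seen, went from 1.63 to 2.29 and from 1.35 to 1.87 in geometric mean.

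**Figure D2:**
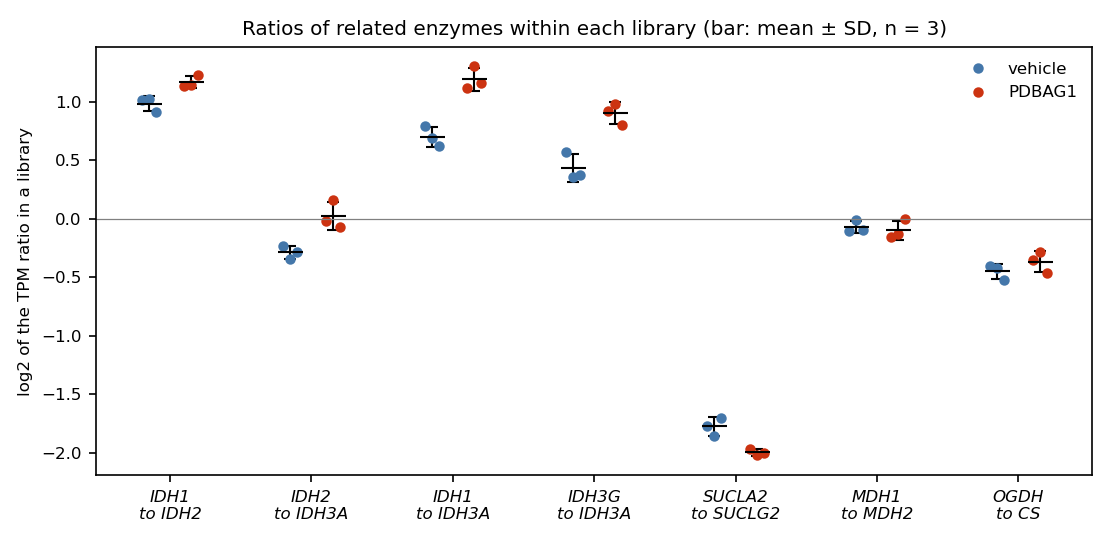
Log2 of the ratio of TPM between related enzymes within each library (vertical axis), for vehicle and PDBAG1, with points for libraries and bars for mean ± SD (n = 3). The ratios of the isocitrate dehydrogenases are higher and that of SUCLA2 to SUCLG2 lower in all PDBAG1 libraries, while MDH1 to MDH2 and OGDH to CS overlap.

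FH (chromosome 1, 241497511 to 241519799), which hydrates fumarate to malate, was at 135, 133 and 140 TPM in the vehicle libraries. In the PDBAG1 libraries it was at 109, 113 and 119 TPM, each lower than every vehicle library. It fell by 0.25 in log2(TPM + 1), with a standard error of 0.04 and an interval of -0.35 to -0.16 (limma adjusted p = 0.000589). Mean TPM fell by 16.3%. FH passed under every alternative, but with the trends of transcript length and GC content removed its difference shrank to -0.15 (limma adjusted p = 0.0129). FH has the shortest canonical transcript of the 8 genes, 1791 bases, against up to 4193 for OGDH.

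CS and OGDH did not pass the test, and their groups overlapped. CS (chromosome 12, 56271699 to 56300391), the citrate synthase that opens the cycle, was at 103, 96.3 and 101 TPM with vehicle and 98.3, 95.8 and 106 TPM with PDBAG1. Its difference of -0.0021 in log2(TPM + 1) had an interval of -0.11 to 0.10 (limma adjusted p = 0.978). OGDH (chromosome 7, 44606572 to 44709066), the first component of the 2-oxoglutarate dehydrogenase complex, was at 78.3, 72.0 and 70.5 TPM with vehicle and 77.2, 78.7 and 77.0 TPM with PDBAG1. The groups overlapped through vehicle replicate 1, and the difference of 0.08 had an interval of -0.03 to 0.18 (limma adjusted p = 0.243). Without vehicle replicate 1 it was 0.12 (limma adjusted p = 0.0707), and with length and GC trends removed 0.0044. The other components DLST and DLD differed by 0.07 and -0.07 (limma adjusted p = 0.244 and 0.292), and DLD passed under median-of-ratios scaling (-0.11, limma adjusted p = 0.0440). The ratio of OGDH to CS overlapped between the groups (exact permutation p = 0.3).

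SUCLA2 (chromosome 13, 47745736 to 48037968) encodes the ATP-forming beta subunit of succinyl-CoA ligase. It was at 39.8, 35.5 and 39.0 TPM with vehicle and 33.6, 34.7 and 36.6 TPM with PDBAG1. The groups overlapped through vehicle replicate 2, and the difference of -0.12, with an interval of -0.25 to 0.01, did not pass (limma adjusted p = 0.141). It passed under median-of-ratios scaling (-0.16, limma adjusted p = 0.0180) and quantile normalization (-0.15, limma adjusted p = 0.0244), and was -0.02 with length and GC trends removed. SUCLG1, the alpha subunit, fell by 0.16 in log2(TPM + 1), from 115 ± 3.08 to 103 ± 1.94 TPM (SD, n = 3 each; limma adjusted p = 0.00902). SUCLG2, the GTP-forming beta subunit that competes with SUCLA2 for SUCLG1, differed by 0.10 (limma adjusted p = 0.115), and passed without PDBAG1 replicate 1 (0.14, limma adjusted p = 0.0275), under quantile normalization (0.12, limma adjusted p = 0.0383) and with length and GC trends removed (0.19, limma adjusted p = 0.00403). The SUCLA2 to SUCLG2 ratio was 0.294, 0.276 and 0.308 with vehicle and 0.255, 0.246 and 0.250 with PDBAG1, without overlap (exact permutation p = 0.1, adjusted 0.2). GENCODE lists 3 processed copies named after SUCLA2, 2 after CS and 1 after FH, which could share reads with them, and places a read-through gene over CS.

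MDH2 (chromosome 7, 76048051 to 76067508), which closes the cycle, was at 261, 253 and 255 TPM with vehicle and 272, 272 and 260 TPM with PDBAG1. PDBAG1 replicate 3 lay within the vehicle range, and the difference of 0.06 had an interval of -0.02 to 0.14 (limma adjusted p = 0.214). Its cytosolic counterpart MDH1 differed by 0.03 (limma adjusted p = 0.550), by -0.0092 under median-of-ratios scaling, and by 0.16 with length and GC trends removed, where it passed (limma adjusted p = 0.00610). The ratio of MDH1 to MDH2 was near 1 in every library, from 0.897 to 0.997.

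In TPM, which is per transcript length, MDH2 was the most abundant of the 8 genes in both groups, followed by FH and CS, with ranges that did not overlap between neighbours. With vehicle, IDH1 and OGDH came next and overlapped, then IDH3A, then SUCLA2 and IDH2, which overlapped. With PDBAG1, IDH1 stood apart above OGDH, IDH2 and IDH3A overlapped, and SUCLA2 was lowest. MDH2 was above 95.4% and SUCLA2 above 65.0% of genes tested in mean TPM. The mean of the 8 genes' centred log2 values was highest in vehicle replicate 1 (0.04) and lowest in PDBAG1 replicate 1 (-0.03), a range that cut across the groups. The genes outside the 8 that followed it most closely over the 6 libraries were SNX6, GEN1, ABCC1, PPIP5K2 and ATP6V1A, with Pearson's r of 0.990 to 0.997, given as a description.

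**Figure D3:**
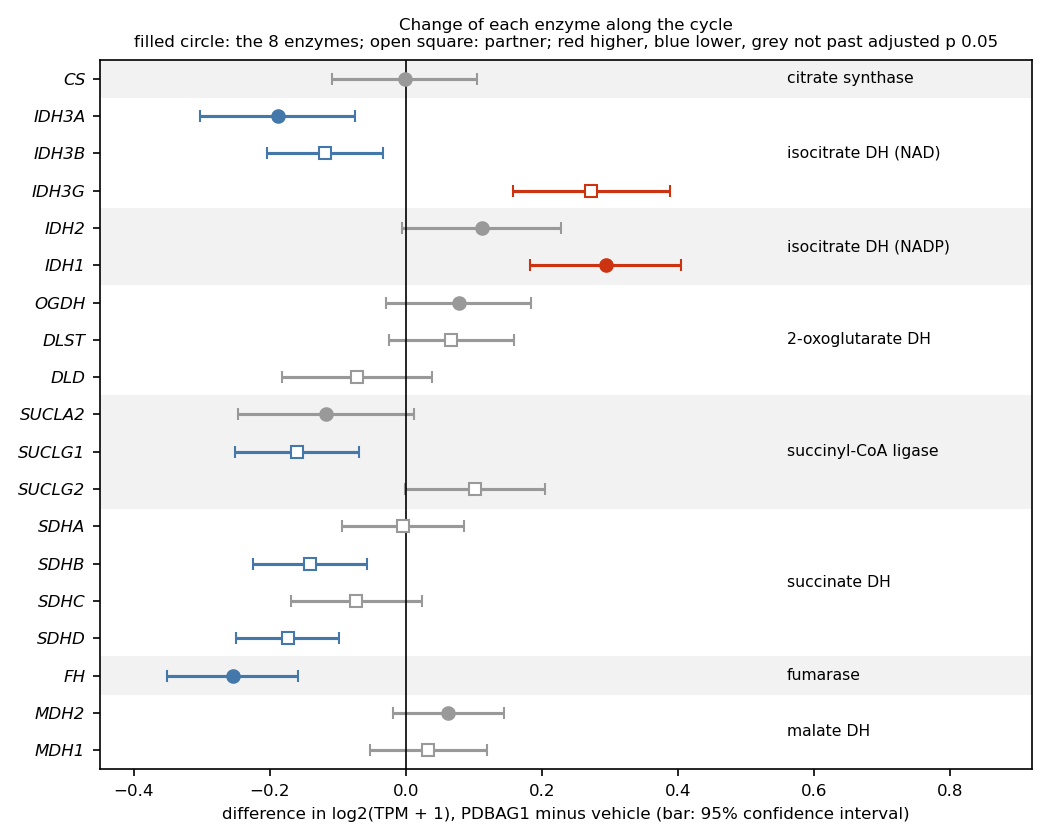
Difference in log2(TPM + 1), PDBAG1 minus vehicle (horizontal axis), with its 95% confidence interval for genes along the cycle, with filled circles for the 8 enzymes and open squares for their partners and counterparts. Red marks genes higher and blue genes lower at a limma adjusted p under 0.05; IDH3A and IDH3B lie left and IDH3G right of 0, and FH lies furthest left at -0.25.

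The remaining cycle genes were described from lists chosen with earlier results of these data known. Of 11 other subunits of the cycle, 2 rose, 4 fell and 5 did not pass (limma adjusted p under 0.05), with a median difference of -0.07. The share that passed was 54.5%, against 37.6% of all genes tested. IDH3G was among those that rose, and IDH3B, SUCLG1, SDHB and SDHD were those that fell. In succinate dehydrogenase, which is also respiratory complex II, SDHB fell from 246 ± 7.07 to 223 ± 4.89 TPM and SDHD from 281 ± 1.87 to 249 ± 2.11 TPM (SD, n = 3 each), by 0.14 and 0.17 in log2(TPM + 1). SDHA and SDHC differed by -0.0049 and -0.07 and did not pass (limma adjusted p = 0.939 and 0.217). SDHB, SDHD and SUCLG1 have canonical transcripts of 1015, 1339 and 1270 bases, and with the trends of length and GC content removed their differences were -0.0083, -0.04 and -0.05, none past the limit. SDHB also did not pass without vehicle replicate 2 (-0.13, limma adjusted p = 0.0562) or without the variance trend (limma adjusted p = 0.0636).

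Of the 13 glutamine and glutamate genes, 10 were tested, of which 3 rose, 3 fell and 4 did not pass. The share that passed was 60%, against 37.6% of all genes tested. GLUL, which makes glutamine from glutamate, rose from 25.8 ± 1.37 to 32.1 ± 1.36 TPM, and GPT2, the mitochondrial alanine transaminase, from 13.2 ± 1.075 to 16.6 ± 0.411 TPM (SD, n = 3 each), with differences of 0.305 and 0.31 in log2(TPM + 1) (limma adjusted p = 0.00155 and 0.00452). GOT1, the cytosolic aspartate transaminase, fell by 0.20, from 96.1 ± 0.180 to 83.7 ± 4.03 TPM (SD, n = 3 each; limma adjusted p = 0.00446). The other genes past the limit, named after their values were seen, were GLUD1 (0.13), GOT2 (-0.12) and PSAT1 (-0.20).

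Among 13 tested genes that feed or drain the cycle (PCK1 was too low), 3 rose, none fell in limma and 10 did not pass, while 6 had an unadjusted p under 0.05. The share that passed was 23.1%, against 37.6% of all genes tested. PC, the pyruvate carboxylase that refills oxaloacetate, was at 25.1, 21.7 and 22.1 TPM with vehicle and 33.7, 34.2 and 34.2 TPM with PDBAG1. Its difference of 0.55 in log2(TPM + 1) was larger than that of any of the 8 enzymes (standard error 0.06, limma adjusted p = 1.83e-05). ACLY, which cleaves exported citrate to acetyl-CoA, rose from 143 ± 4.84 to 175 ± 3.99 TPM, and ME1, the cytosolic malic enzyme, from 28.5 ± 0.584 to 32.6 ± 1.42 TPM (SD, n = 3 each), by 0.29 and 0.19. ME1 did not pass without vehicle replicate 2 (0.17), vehicle replicate 3 (0.19) or PDBAG1 replicate 2 (0.17), nor under median-of-ratios scaling (0.15) or with a replicate block (0.19, limma adjusted p = 0.0589).

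All 6 genes of pyruvate entry had negative differences, as did 5550 of all 12582 genes tested. Of the 6, 3 passed, or 50%, against 37.6% of all genes. MPC1, a subunit of the mitochondrial pyruvate carrier, was lower at 46.9 ± 1.32 against 55.8 ± 0.393 TPM (SD, n = 3 each), having dropped by 0.25 in log2(TPM + 1) (limma adjusted p = 0.00131). PDHB and PDHX, of the pyruvate dehydrogenase complex, fell by 0.14 and 0.17. With length and GC trends removed the differences of MPC1, PDHB and PDHX were -0.09, -0.03 and -0.09, none past the limit. PDHB did not pass without PDBAG1 replicate 2 (-0.12) or without the variance trend (limma adjusted p = 0.0641). PDHX passed in only 1 of the 6 fits that left out a library, that without PDBAG1 replicate 3, with differences of -0.23 to -0.12, and did not pass with a replicate block (limma adjusted p = 0.0670), without the variance trend (0.0698) or without the filter on low values (0.0614).

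A list of 8 genes held those of lipoylation and succinate dehydrogenase assembly, and MRPS36. In it SDHAF3, an assembly factor, fell from 55.3 ± 2.31 to 45.03 ± 3.43 TPM (SD, n = 3 each). Its difference was -0.29 (limma adjusted p = 0.00193), and it was at -0.14 and not past the limit with length and GC trends removed. The other 7 did not pass, so 12.5% of this list passed, against 37.6% of all genes tested. None of 4 tested genes for 2-hydroxyglutarate removal and OGDH-like enzymes passed in limma, and 1 had an unadjusted p under 0.05. Over all 52 tested companion genes 8 rose and 11 fell, 36.5% against the 37.6% of all genes.

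**Figure D4:**
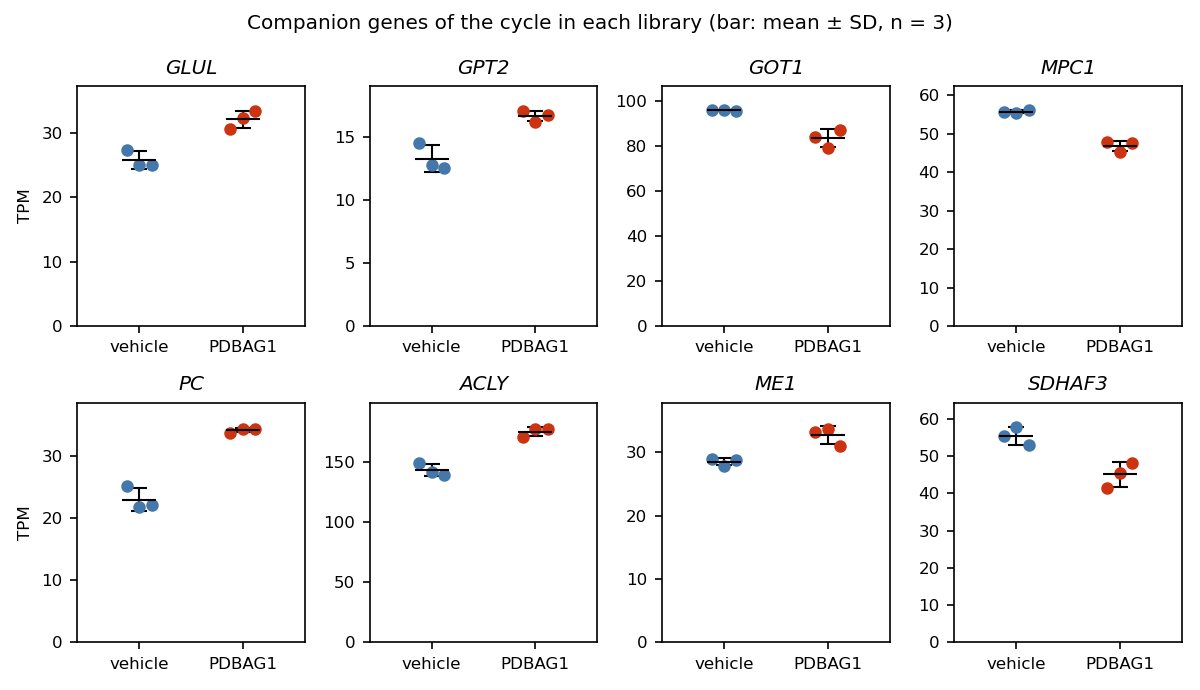
Level of 8 companion genes of the cycle in every library, in TPM (vertical axis from 0), for vehicle and PDBAG1, with points for libraries and bars for mean ± SD (n = 3). PDBAG1 points of GLUL, GPT2, PC, ACLY and ME1 lie above, and those of GOT1, MPC1 and SDHAF3 below, all vehicle points.

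**Figure D5:**
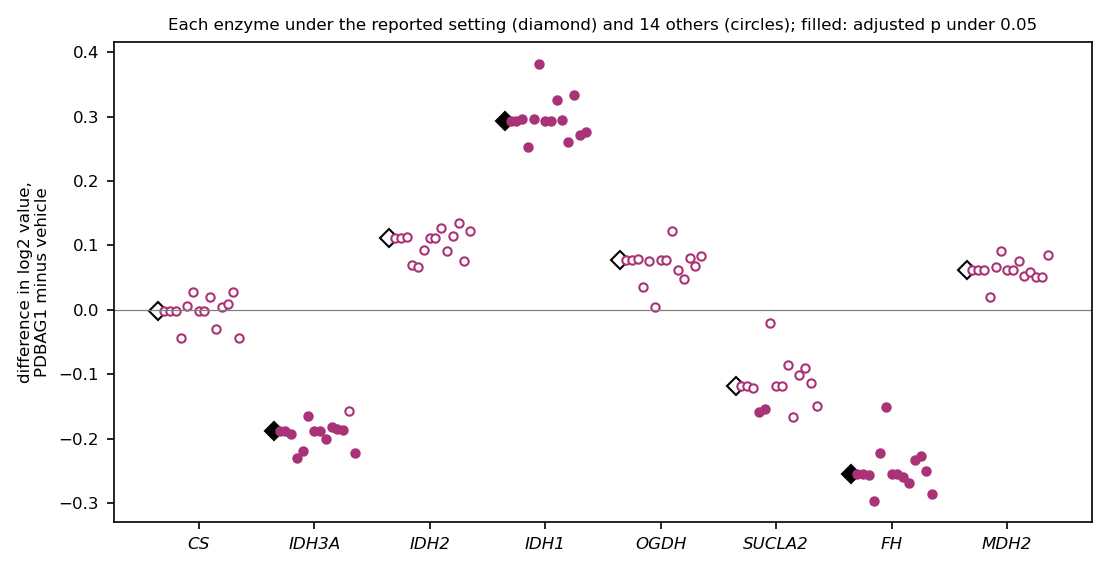
Difference in log2 value, PDBAG1 minus vehicle (vertical axis), of each of the 8 enzymes as reported (diamond) and under 14 alternatives (circles), filled where the limma adjusted p was under 0.05. IDH1 and FH are filled throughout, IDH3A in all but 1, and SUCLA2 in 2.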

How the data were processed

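RNA-seq of 6 MDA-MB-231 libraries was analysed, 3 per group, grouped by the sample titles. The study's methods describe BGISEQ sequencing of mRNA (the labels name Illumina library protocols), HISAT2 mapping to GRCh38 and FPKM, whereas per the file headers the values the authors deposited are TPM. The submitters' processing notes name HISAT2 2.0.4, Bowtie2 2.2.5 and RSEM 1.2.12. The annotation release is not given in the sources used here. As the values are TPM, limma was used and count-based tests were not run.

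The 12582 genes that reached 1 TPM in 3 libraries entered the test as log2(TPM + 1) in R 4.3.3 with limma 3.58.1 (lmFit, eBayes with a trend). This scale understates changes of low genes. P values were adjusted over all genes tested (Benjamini-Hochberg). Positions, transcript lengths and GC content are from GENCODE v44, which held 17212 of the 17631 genes, and promoter windows are from RefSeq. Steps were tested on simulated data. The members, the lists and the tests were chosen with earlier results of these data known. Named genes were the 8 members, partners and counterparts of members, and up to 3 called genes with the largest differences in each other list. Alternatives were other filters, pseudocount 0.1, other scalings, removal of length and GC trends, a replicate block, no variance trend and leaving out each library. Some genes covered by the rule are not reported here.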

Additional observations from a re-analysis of the deposited data

How the results depend on the processing

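The number of the 8 enzymes past the limit was 3 under most alternatives, 4 under median-of-ratios scaling and quantile normalization, and 2 to 3 with each library left out. The number of companion genes past it went from 19 to 12 without the variance trend. With each library left out it ranged from 12 to 19, lowest without PDBAG1 replicate 2, and the cause was not tested. It was 16 with length and GC trends removed, 23 under median-of-ratios scaling and 25 under quantile normalization. Under those 2 scalings 5196 and 5146 of all genes passed. Over all genes tested the number at 1.5-fold was 420, or 630 with a pseudocount of 0.1, and 4736 without a fold limit, or 3532 to 4649 with a library left out.

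Values near 0 changed sign, none of them past the limit before or after. CS was at 0.0053 under quantile normalization, 0.028 with length and GC trends removed, and -0.0444 to 0.0284 with each library left out. SDHA was at 0.0288, 0.0011 and -0.0261 to 0.0211 in the same settings. Scaling by median of ratios put MDH1 at -0.0092, and SDHC was at 0.0363 with length and GC trends removed. The ratio of MDH1 to MDH2 differed by -0.08 to 0.0012 (log2) with each library left out. Adding a pseudocount of 1 to the ratios, chosen after the data were seen, moved no planned ratio by more than its replicate spread.

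In a fit with a replicate block, 3 of the 8 enzymes, 13 companion genes and 3951 of all genes passed. The numbers have no stated origin: same-numbered libraries had correlations of -0.21, 0.01 and -0.08, and 1 of the 6 libraries correlated best with its own number. The count-based alternatives were not run. TPM holds no depth, so only the 3 libraries per group bound the precision.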

Other observations

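Beside the TCA cycle enzymes, 17 glycolytic enzymes were largely higher with PDBAG1 (limma, adjusted p under 0.05). Of these 15 rose and 1 fell, with a median difference of 0.36 in log2(TPM + 1). Among 77 mitochondrial ribosomal protein genes 50 were lower and 0 higher (median -0.18). Among 78 respiratory chain subunit genes 30 were lower and 0 higher (median -0.10). This last list held nuclear genes only, included ATP synthase and left out succinate dehydrogenase. The shares called in either direction were 94.1%, 64.9% and 38.5%, against 37.6% of all genes tested. The share of the respiratory chain list was near this background, but all of its calls were lower. Of its 78 genes 72 had negative and 6 positive differences, against 5550 negative among all 12582 genes tested. Of all genes tested 21.7% were called higher and 15.9% lower. With unadjusted limma p under 0.05 there were 16, 55 and 41 genes, against 5814 of all 12582. Values of these lists with length and GC trends removed are not given here. The 8 TCA cycle enzymes had a median of 0.03. The difference between these lists was not tested.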
